A study of Homo sapiens with 5 samples.

Results

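MicroRNA host genes are genes whose transcripts contain one or more microRNA hairpins. The 8 host genes described here are MIR205HG, MIR31HG, MIR100HG, MIR22HG, MIR17HG, MIR99AHG, MIR210HG and MIR155HG, taken by their symbols from a deposited expression table of 37181 entries. These symbols stood on 11 entries, because MIR100HG had 2 and MIR155HG had 3, and for each symbol the entry with the highest mean over the 5 libraries was used. The table gives FPKM (fragments scaled by transcript length and by the mapped fragments of the library) for the host transcripts. The mature microRNAs were not measured here.

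The libraries were made from HCC827, a human lung adenocarcinoma cell line that carries an EGFR exon 19 deletion and is sensitive to gefitinib, an EGFR tyrosine kinase inhibitor, and from HCC827/GR, a resistant line raised from HCC827 with increasing gefitinib doses over more than 6 months. Both lines carry the same deletion, and no other treatment is named. HCC827/GR is represented by replicates 1, 2 and 3 and HCC827 by replicates 2 and 3. Whether replicates were separate cultures, and whether HCC827/GR is 1 clone, is not given, so the p-values measure the spread between these libraries, which may be technical. The comparison asks which host transcripts differed between resistant and sensitive cells.

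FPKM sums ran from 138854 to 167722 per library, and 8896 to 9803 entries were listed at 0 in each. The number of reads behind a value is unknown. The epithelial markers EPCAM, KRT8, KRT18 and KRT19 were present in every library, with a summed FPKM of 437 to 565 in HCC827/GR and 1028 to 1156 in HCC827. By limma, 3 of the 4 were called lower, as were 5.71% of all tested entries. The part of these markers in the results below was not tested. Of the lung adenocarcinoma markers, NKX2-1 fell by 1.64 on the log2(FPKM + 1) scale (limma, adjusted p = 0.0115), SFTPB read at most 0.139 FPKM, and NAPSA was not analysed here. The leukocyte markers PTPRC and CD14 read at most 0.0228 and 0.267 FPKM in any library. Of the endothelial markers, PECAM1 read 0 FPKM in each resistant library and 4.34 and 3.32 FPKM in HCC827, while CDH5 and VWF stayed under 0.1 in all 5. In such bulk samples, fewer cells of a kind and less RNA per cell cannot be told apart.

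A host transcript is made by RNA polymerase II and is both spliced and read by the Drosha and DGCR8 complex, which cuts hairpins out of introns or exons. The hairpins are exported, trimmed by Dicer and loaded into Argonaute proteins, where the seed near the 5′ end of the mature microRNA pairs with target mRNAs. The level of the host transcript is therefore an early and indirect measure, since cleavage, splicing and turnover lie between it and the mature microRNA. In epithelial tumours, miR-205 is known as a microRNA of epithelial cells that targets ZEB1 and ZEB2, the miR-17 cluster as a MYC-driven growth cluster, miR-210 as a marker of hypoxia and miR-155 as a microRNA of immune activation.

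The 8 host genes hold 17 microRNA genes. The main mature products of these genes are 16 sequences with 12 different seeds, and each was found in RefSeq (GRCh38.p14). The sequences below show the microRNAs of the host genes whose values the results turn on, and which of them share a seed. They are written 5′ to 3′ with the seed (bases 2 to 8) in capitals. The first is the product of MIR31HG, at chr9:21512158-21512178 on the minus strand.
hsa-miR-31-5p: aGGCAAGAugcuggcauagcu
MIR100HG and MIR99AHG carry sister clusters, and 3 seeds were shared by both. The miR-100, let-7a and miR-125b sequences come from MIR100HG (minus strand, chr11:122152275-122152296, chr11:122146568-122146589 and chr11:122099809-122099830), and miR-99a and let-7c from MIR99AHG (plus strand, chr21:16539101-16539122 and chr21:16539838-16539859). Counting from 1 at the 5′ end, miR-99a differed from miR-100 at 1 base (A16U) and let-7c from let-7a at 1 base (A19G), both outside the seed. The same mature miR-125b is also encoded in MIR99AHG, at chr21:16590253-16590274.
hsa-miR-100-5p: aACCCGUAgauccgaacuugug
hsa-miR-99a-5p: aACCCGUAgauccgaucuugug
hsa-let-7a-5p: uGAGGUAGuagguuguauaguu
hsa-let-7c-5p: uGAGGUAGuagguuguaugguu
hsa-miR-125b-5p: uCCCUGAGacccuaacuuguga
The others shown are miR-155 of MIR155HG (chr21:25573983-25574006, plus strand), miR-205 of MIR205HG (chr1:209432166-209432187, plus strand), miR-22 of MIR22HG (chr17:1713914-1713935, minus strand), miR-210 of MIR210HG (chr11:568112-568133, minus strand), and miR-17 and miR-19a as examples of the 6 microRNAs of MIR17HG (plus strand, chr13:91350618-91350640 and chr13:91350939-91350961).
hsa-miR-155-5p: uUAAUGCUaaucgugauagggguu
hsa-miR-205-5p: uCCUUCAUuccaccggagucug
hsa-miR-22-3p: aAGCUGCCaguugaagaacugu
hsa-miR-210-3p: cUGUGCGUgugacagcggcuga
hsa-miR-17-5p: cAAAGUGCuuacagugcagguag
hsa-miR-19a-3p: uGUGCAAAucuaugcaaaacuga

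The placement of the hairpins within the host genes differed between the members. In the GENCODE release 29 annotation (GRCh38), the hairpin of MIR22 lay in an exon of 19 of 19 MIR22HG transcripts, and the 6 hairpins of MIR17HG lay in an exon of 2 of 3 transcripts. MIR155 lay in an exon of the only MIR155HG transcript that spans it. By contrast, the hairpins of MIR31HG, MIR100HG, MIR99AHG, MIR205HG and MIR210HG did not lie wholly within an exon of any transcript that spans them. Whether any of them crosses the border of an exon was not tested.

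MIR31HG and MIR100HG were called lower in HCC827/GR than in HCC827, and none of the 8 host genes was called higher. For MIR100HG this was an assembled transcript, and its entry with Ensembl transcripts differed by −0.11 (limma, adjusted p = 0.838). With 1 library left out, limma called 0 to 2 host genes lower, and Ballgown's model called 0 on all 5 libraries. MIR155HG had the opposite direction but missed the threshold, MIR22HG and MIR17HG showed overlapping values, and MIR210HG, MIR205HG and MIR99AHG were too low to be tested. A gene was called when limma's moderated test on log2(FPKM + 1) gave a Benjamini-Hochberg adjusted p under 0.05 over the 16189 entries whose mean reached 0.5 FPKM, of which 10924 were protein-coding. Of the 8 host genes, 5 passed this filter and 2 were called, both lower, and 0 higher (MIR155HG was higher by an unadjusted p), where 11.0% of all tested entries were called, 5.26% higher and 5.71% lower. Among the 1569 tested long noncoding entries, 7.97% were called and 4.65% were called lower. The study's thresholds were a fold of at least 2 in either direction and a p under 0.05, applied with Ballgown. Here they were set on the log2(FPKM + 1) difference and limma's unadjusted p. They were passed by 1 host gene, MIR100HG, and by 6.94% of all tested entries. The groups shared no range of values for 5 of the 8 host genes, 4 of them lower in HCC827/GR, while 33.7% of the 36011 entries above 0 in any library did not overlap and 18.7% did so on the lower side. With 3 libraries against 2, the exact permutation test of a single gene cannot give a two-sided p below 0.1, and each of these 5 genes had that value.

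**Figure D1:**
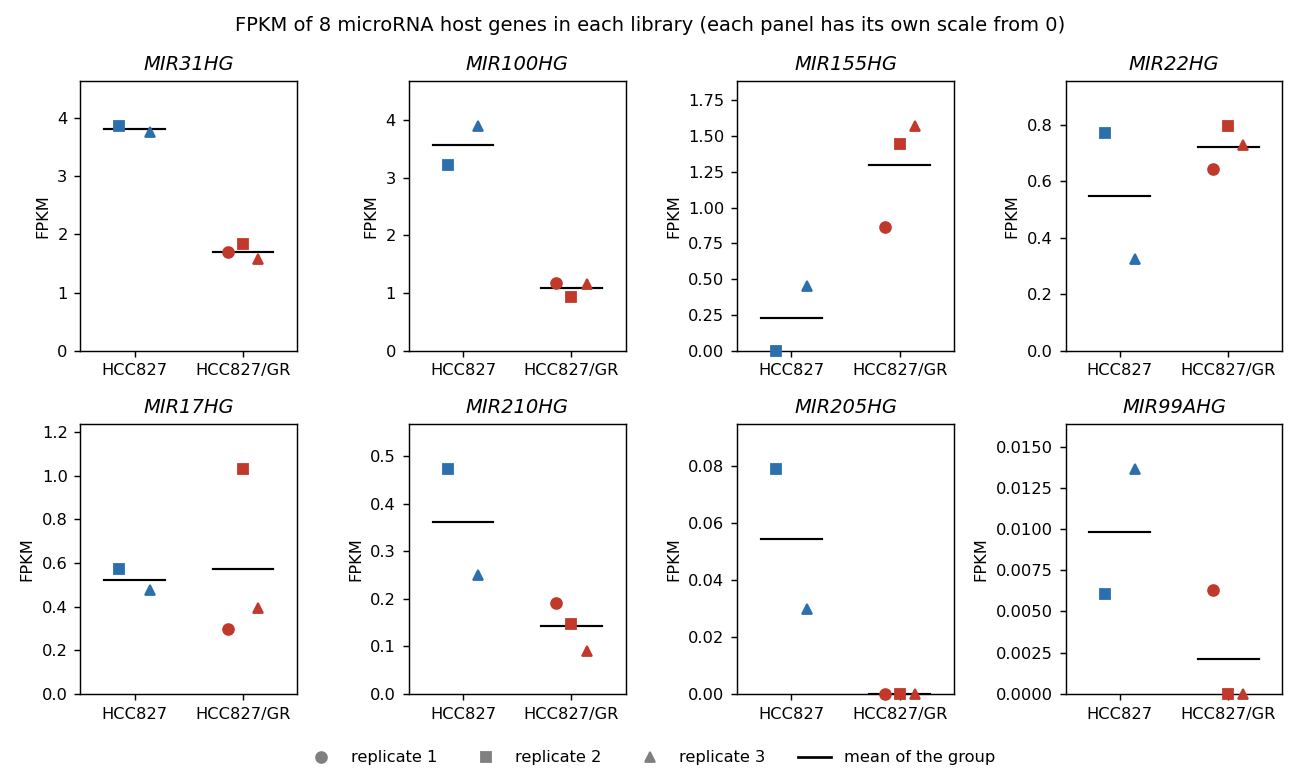
FPKM of the 8 microRNA host genes in each library, with HCC827 (blue, replicates 2 and 3) and HCC827/GR (red, replicates 1 to 3) on the x axis, FPKM from 0 on the y axis of each panel and a bar at the group mean. The HCC827/GR points of MIR31HG lie between 1.58 and 1.84 FPKM and those of HCC827 at 3.76 and 3.86, and MIR205HG reads 0 in every HCC827/GR library.

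MIR31HG is a long noncoding RNA gene near the CDKN2A and CDKN2B locus and the host of miR-31, a microRNA with reported roles both for and against tumour growth. Its annotated gene spans chr9:21455642-21559669 on the minus strand with 4 exons, and the protein-coding gene IFNE lies inside it on the same strand. The FPKM of MIR31HG was 1.70, 1.84 and 1.58 in HCC827/GR replicates 1, 2 and 3, against 3.86 and 3.76 in HCC827 replicates 2 and 3. All 3 resistant libraries were thus below both sensitive libraries, and the spread within each group was small, with means of 1.71 ± 0.127 (SD, n = 3) and 3.81 ± 0.0738 (SD, n = 2). MIR31HG fell by 0.83 on the log2(FPKM + 1) scale (SE 0.094, 95% confidence interval −1.08 to −0.59; limma, adjusted p = 0.0124). The ratio of the mean FPKM was 0.447, although the logged difference, which is compressed at low FPKM by the added 1, did not reach a fold of 2. Leaving out 1 library left the difference between −0.87 and −0.80. The limma adjusted p stayed under 0.05 without HCC827/GR replicate 2 (0.0444) or 3 (0.0428), but rose to 0.0574 without HCC827/GR replicate 1, 0.0761 without HCC827 replicate 2 and 0.0652 without HCC827 replicate 3.

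MIR100HG hosts miR-100, let-7a and miR-125b and has been described in cells resistant to antibodies against EGFR. The entry that the selection rule took holds a single transcript assembled from the reads under the symbol MIR100HG, with no Ensembl transcript and thus no position here. Its FPKM was 1.18, 0.938 and 1.16 in HCC827/GR replicates 1, 2 and 3, against 3.23 and 3.90 in HCC827 replicates 2 and 3. The groups did not overlap, and the means were 1.09 ± 0.132 (SD, n = 3) and 3.56 ± 0.477 (SD, n = 2), a ratio of 0.306. This entry fell by 1.12 on the log2(FPKM + 1) scale (SE 0.12, 95% confidence interval −1.44 to −0.81; limma, adjusted p = 0.0116). Among the 2754 tested entries without an Ensembl transcript, 11.9% were called and 8.32% were called lower. Leaving out 1 library gave −1.23 to −1.02, and the limma adjusted p was 0.0518 without HCC827/GR replicate 1, 0.0509 without HCC827 replicate 2 and 0.0603 without HCC827 replicate 3, while it was 0.0444 and 0.0411 without HCC827/GR replicates 2 and 3.

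The second MIR100HG entry gave another picture. It joins 11 Ensembl transcripts of MIR100HG and of BLID, a small gene inside it on the same strand, with 2 assembled transcripts, and the annotated MIR100HG gene spans chr11:122028327-122556721 on the minus strand with 39 transcripts. Its FPKM was 0.609, 0.137 and 0.747 in HCC827/GR and 0.817 and 0.384 in HCC827, so the groups overlapped. The difference was −0.11 on the log2(FPKM + 1) scale (SE 0.26, 95% confidence interval −0.78 to 0.57; limma, adjusted p = 0.838). The call for MIR100HG therefore rested on the assembled transcript, and for the entry with the annotated transcripts a change of moderate size in either direction lies within the interval. Whether the 2 entries differ in their change was not tested. With both entries summed, MIR100HG fell by 1.01 on the same scale (limma, adjusted p = 0.0359).

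MIR155HG, also known as BIC, carries miR-155 in its exon and is a transcript of activated lymphocytes. Its 3 entries are 1 with the Ensembl transcript of the gene at chr21:25561909-25575168 (plus strand, 4 exons) and 2 with an assembled transcript only, and the entry taken by the rule was 1 of the latter. Its FPKM was 0.868, 1.45 and 1.57 in HCC827/GR replicates 1, 2 and 3, against 0.452 in HCC827 replicate 3 and a listing at 0 in HCC827 replicate 2. All 3 resistant libraries were above both sensitive libraries, but the entry passed the filter only through HCC827/GR (mean 1.29 FPKM, against 0.226 in HCC827). The difference was 0.92 on the log2(FPKM + 1) scale (SE 0.24, 95% confidence interval 0.28 to 1.55), with an unadjusted limma p of 0.0144 and an adjusted p of 0.0884, so it did not pass the threshold. An unadjusted p under 0.05 was given to 27.2% of all tested entries.

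The entry with the Ensembl transcript of MIR155HG read 1.17, 0.758 and 0.531 FPKM in HCC827/GR and 0.861 and 0.0054 FPKM in HCC827. Its groups overlapped, since HCC827 replicate 2 was within the resistant range and replicate 3 far below it, and the difference was 0.40 on the log2(FPKM + 1) scale (SE 0.32; limma, adjusted p = 0.499). The remaining entry was listed at 0 in 3 libraries and read 1.43 and 0.184 FPKM in HCC827/GR replicates 1 and 2. When the 3 entries were summed, MIR155HG was 1.13 higher in HCC827/GR on the same scale, with a limma adjusted p of 0.0404, and this was the only setting tried in which any of the 8 host genes was called higher.

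**Figure D2:**
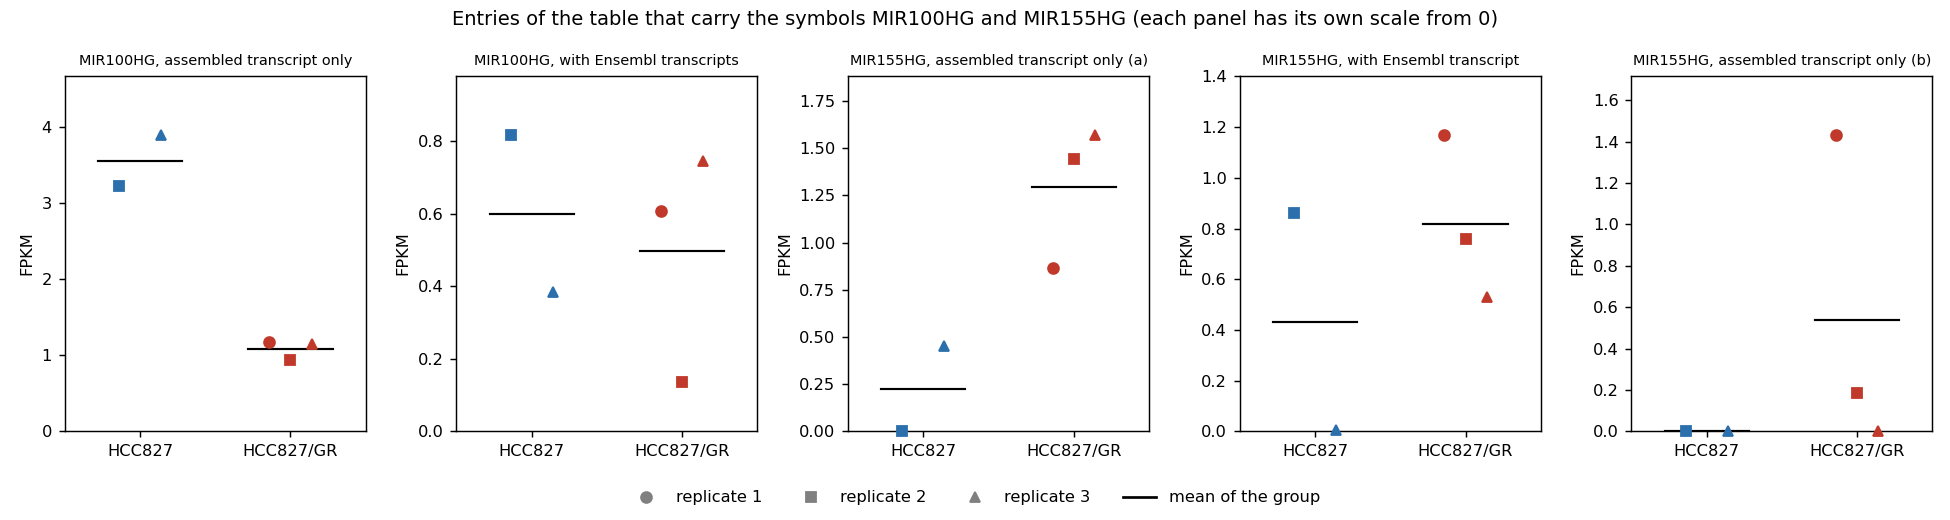
FPKM of each entry that carries the symbol MIR100HG or MIR155HG, by library, with HCC827 in blue, HCC827/GR in red, a bar at the group mean and FPKM from 0 on each y axis. The assembled MIR100HG entry separates the lines (0.938 to 1.18 against 3.23 to 3.90 FPKM), whereas the entry with the Ensembl transcripts overlaps (0.137 to 0.747 against 0.384 to 0.817 FPKM).

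MIR22HG and MIR17HG, which like MIR155HG carry their hairpins in exons, had low levels and showed no difference past the threshold. MIR22HG is a stress-responsive gene at chr17:1711493-1717174 on the minus strand. Its FPKM was 0.642, 0.795 and 0.726 in HCC827/GR and 0.769 and 0.324 in HCC827. HCC827 replicate 2 was inside the resistant range and only replicate 3 was below it. The difference was 0.17 on the log2(FPKM + 1) scale (95% confidence interval −0.29 to 0.63; limma, adjusted p = 0.603), and it was −0.041 without HCC827 replicate 3. The 5′ end of MIR22HG overlaps WDR81 on the opposite strand, and whether the counting used strand is not given, so reads of the overlap cannot be assigned.

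MIR17HG, the host of the miR-17 cluster and a target of MYC, spans chr13:91347820-91354579 on the plus strand. Its FPKM was 0.299, 1.03 and 0.395 in HCC827/GR and 0.570 and 0.474 in HCC827. HCC827/GR replicate 2 was the highest and the other two resistant libraries the lowest of the 5, with both sensitive libraries between them. The difference was 0.02 on the log2(FPKM + 1) scale (95% confidence interval −0.61 to 0.65; limma, adjusted p = 0.967), and its sign depended on the setting. For both genes these intervals leave room for changes of moderate size in either direction.

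The other 3 hosts had means under the filter of 0.5 FPKM. MIR210HG, a hypoxia-induced gene at chr11:565660-568457 on the minus strand, read 0.191, 0.147 and 0.0904 FPKM in HCC827/GR and 0.472 and 0.251 FPKM in HCC827. All resistant libraries were below both sensitive libraries, with means of 0.143 ± 0.0503 (SD, n = 3) and 0.361 ± 0.157 (SD, n = 2). When the filter was dropped, the difference was −0.25 on the log2(FPKM + 1) scale with a limma adjusted p of 0.302.

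MIR205HG, a gene of basal and squamous epithelium at chr1:209428820-209432838 on the plus strand, was listed at 0 in every resistant library and at 0.0787 and 0.0299 FPKM in HCC827 replicates 2 and 3. No fold is given against a group listed at 0, and without the filter the limma adjusted p was 0.199. MIR99AHG (chr21:15928296-16645065, plus strand) was close to 0 throughout, with 0.00628, 0 and 0 FPKM in HCC827/GR and 0.00604 and 0.0136 FPKM in HCC827, and the limma adjusted p without the filter was 0.663. The host of the sister cluster to that of MIR100HG was thus listed near 0 in both lines.

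FPKM is scaled for transcript length, so the hosts could be ordered by level within each line. In HCC827/GR, the order of the mean levels was MIR31HG, MIR155HG, MIR100HG, MIR22HG, MIR17HG, MIR210HG, MIR99AHG and MIR205HG. The range of MIR31HG was above all others, MIR155HG and MIR100HG overlapped, and MIR17HG (0.299 to 1.03 FPKM) overlapped MIR22HG and reached into the ranges of MIR155HG and MIR100HG. In HCC827, the order was MIR31HG, MIR100HG, MIR22HG, MIR17HG, MIR210HG, MIR155HG, MIR205HG and MIR99AHG. MIR31HG and MIR100HG overlapped and stood above the rest. MIR22HG overlapped MIR17HG, MIR210HG and MIR155HG, and MIR155HG, with 1 library listed at 0, spanned the ranges of MIR205HG and MIR99AHG. By its mean, MIR155HG stood next to the top in HCC827/GR and in the lower part of the order in HCC827. Its entry was chosen by the highest mean, which came mostly from HCC827/GR, so this shift may follow in part from the choice. The entry with the Ensembl transcript had means of 0.819 FPKM in HCC827/GR and 0.433 FPKM in HCC827. The ranges rest on 3 and 2 libraries, and the levels of MIR100HG and MIR155HG are those of assembled transcripts.

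**Figure D3:**
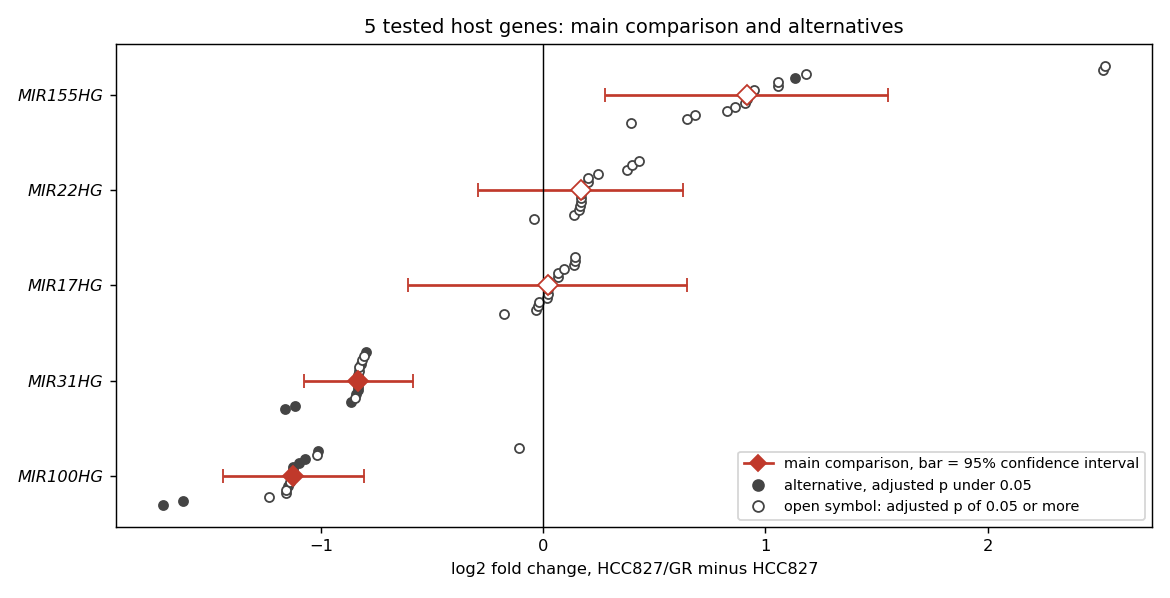
The log2 fold change (HCC827/GR minus HCC827) of the 5 tested host genes under the main comparison (red, with its 95% confidence interval) and under each alternative (grey), filled where the limma or alternative adjusted p was under 0.05; points for the ratio of the mean FPKM take the main adjusted p. MIR31HG stays below 0 under every alternative, MIR100HG approaches 0 (−0.11) with its other entry, and MIR17HG lies on both sides of 0 (−0.18 to 0.14).

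The genes beside the hosts were examined next, to show whether a difference extended over the neighbourhood. For each host these were the nearest tested protein-coding entries on either side and any that overlapped, 17 in all, of which 5 were called lower and 1 higher, where 11.0% of all tested entries and 11.6% of the protein-coding ones were called. Beside MIR31HG, an entry that joins MTAP, CDKN2B-AS1 and ERVFRD-3, 243 kb away, fell by 0.77 on the log2(FPKM + 1) scale (limma, adjusted p = 0.0463), while FOCAD, 460 kb to the other side, differed by −0.23 (adjusted p = 0.235). Beside MIR100HG, SORL1, a sorting receptor gene 395 kb away, read 3.94, 3.08 and 3.47 FPKM in HCC827/GR against 9.64 and 9.98 in HCC827. It fell by 1.27 on the same scale (limma, adjusted p = 0.00862), whereas the closer UBASH3B, at 98.95 kb, had a difference of 0.00 (adjusted p = 0.990). Of the neighbours of each of these hosts, 1 of 2 was thus called. Neighbours were placed by the annotated host gene, whereas the values used for MIR100HG and MIR155HG are those of assembled transcripts with no position here. The MIR100HG entry with the annotated transcripts differed by −0.11 (limma, adjusted p = 0.838).

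The other hosts showed similarly mixed surroundings. Beside MIR205HG, LAMB3, which encodes a laminin chain of epithelial basement membranes, fell by 1.15 at a distance of 182 kb (limma, adjusted p = 0.0489). CD46, 1633 kb away, differed by −0.57 (limma, adjusted p = 0.198). Beside MIR99AHG, the deubiquitinase gene USP25, 48.2 kb away, fell by 1.00 (limma, adjusted p = 0.0242), from 8.36 and 6.75 FPKM in HCC827 to 3.40, 3.69 and 2.74 FPKM in HCC827/GR. CXADR, 867 kb away, differed by −0.36 (limma, adjusted p = 0.277). Beside MIR155HG, C21orf91 fell by 1.06 (limma, adjusted p = 0.0368), at a distance of 7743 kb, and MRPL39, at 10.5 kb, differed by 0.20 (adjusted p = 0.251). The single rise was SERPINF2 beside MIR22HG, 25.7 kb away, up by 0.66 (limma, adjusted p = 0.0483). SERPINF2 passed the filter only through HCC827/GR (mean 0.865 FPKM, against 0.181 in HCC827). TLCD2, 1.05 kb from MIR22HG, and the overlapping WDR81 differed by 0.58 (limma, adjusted p = 0.236) and 0.20 (adjusted p = 0.437). The neighbours of MIR17HG (SPRY2, −0.38, at 11007 kb, and GPC6, −0.62, at 1872 kb) did not pass the test. Nor did those of MIR210HG (RASSF7, −0.45, at 1.64 kb, and PHRF1, −0.06, at 8.03 kb). GPC6 missed the threshold narrowly (limma, adjusted p = 0.0529) and was called lower under median-ratio (0.0491) and quantile scaling (0.0487). With 1 library left out, the joined MTAP entry, SERPINF2, USP25 and C21orf91 were called in 0 of 5 cases by limma (lowest adjusted p 0.0520). LAMB3 was called only without HCC827/GR replicate 3 (limma, adjusted p = 0.0303). SORL1 was called in 3 of 5, the exceptions being without HCC827 replicate 2 or 3 (limma adjusted p at most 0.0572).

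**Figure D4:**
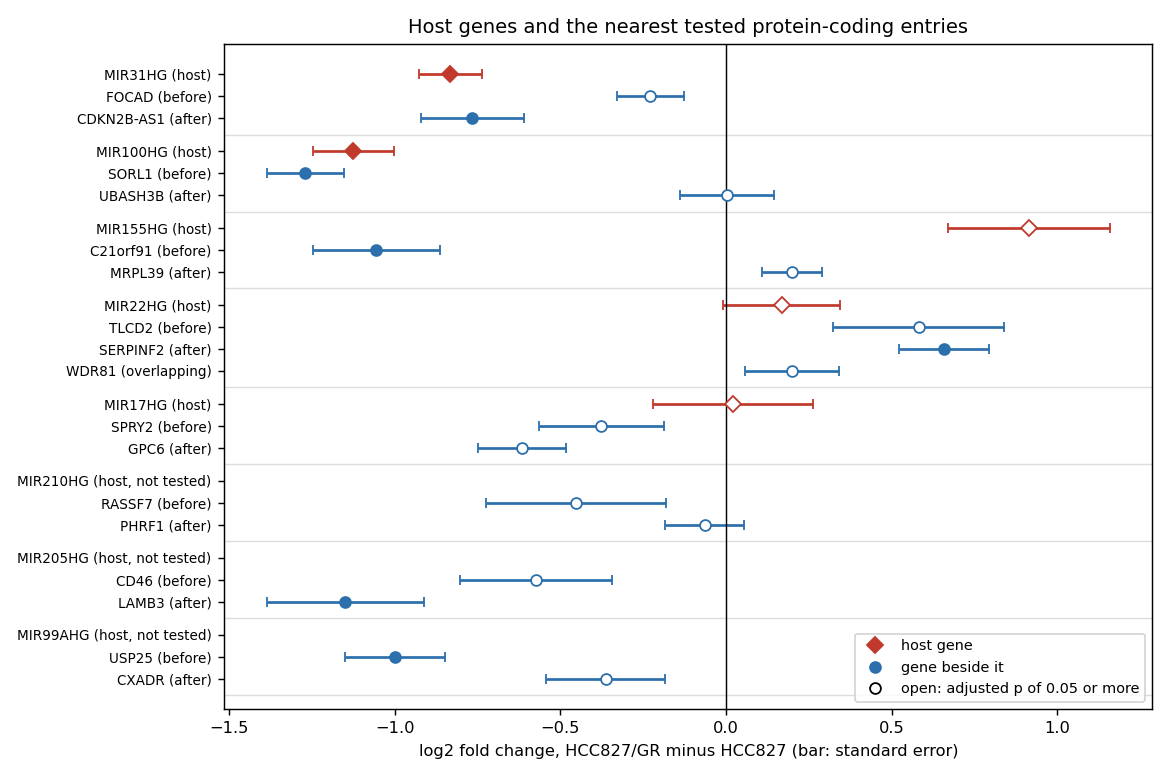
The log2 fold change (HCC827/GR minus HCC827, x axis) of each tested host gene (red diamonds) and of the tested protein-coding entries beside it (blue circles), with bars for the standard error and filled symbols for an adjusted p under 0.05. SORL1 (−1.27) lies beside the annotated MIR100HG gene, while UBASH3B on its other side is at 0.00. The values shown for MIR100HG (−1.12) and MIR155HG are those of assembled transcripts with no position here. Before and after follow chromosome coordinates. The entry labelled CDKN2B-AS1 joins MTAP, CDKN2B-AS1 and ERVFRD-3.

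The protein-coding genes whose centred log2(FPKM + 1) values were most like those of the called hosts were chosen over the 5 libraries by the root mean square difference. For MIR31HG they were PYGB, brain-type glycogen phosphorylase (difference 0.0302), and GAS2L3, a cytoskeletal linker gene (0.0366). For MIR100HG they were CSTF2, a cleavage stimulation factor gene (0.0337), and MYBPH (0.0592). They were called lower too, as a likeness over 5 libraries in 2 groups requires, with log2 fold changes of −0.77 for PYGB, −0.85 for GAS2L3, −1.07 for CSTF2 and −1.11 for MYBPH. Each of these calls was lost in 3 of the 5 cases with 1 library left out, for PYGB, GAS2L3 and CSTF2 without HCC827/GR replicate 1 or either HCC827 library and for MYBPH without any 1 HCC827/GR library (limma adjusted p at most 0.0856). MYBPH passed the filter only through HCC827 (mean 1.29 FPKM, against 0.0555 in HCC827/GR).

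The machinery that processes the host transcripts showed no called gene. Of 14 microRNA processing genes, all tested, 0 were called by limma, where 11.0% of all tested entries were called. An unadjusted limma p under 0.05 was given to 2, and the groups did not overlap for 6. Over all tested entries, 27.2% had such a p and 46.3% had no overlap. The median log2 fold change of the 14 genes was −0.02, next to 0.00 over all tested entries. Ballgown's model also called 0 of the 14, but it called only 13 of the 16189 tested entries. A 0 from this model, here and for the lists below, therefore says little. Its unadjusted p was under 0.05 for 1 of the 14 and for 2944 of all tested entries. RAN, the export cofactor with the highest mean level, read 50.3, 48.9 and 56.1 FPKM in HCC827/GR and 61.1 and 81.2 FPKM in HCC827 (log2 fold change −0.44; limma, adjusted p = 0.159). The nuclease gene DROSHA differed by 0.40 (limma, adjusted p = 0.189) and the Dicer partner gene TARBP2 by −0.45 (adjusted p = 0.0589), both named after their values were seen.

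Of the 35 other entries whose symbols start with MIR and end with HG, 10 passed the filter. Of these 10, 0 were called by limma or by Ballgown's model, where limma called 11.0% of all tested entries. An unadjusted limma p under 0.05 was given to 3 of the 10 and to 27.2% of all tested entries. Ballgown's unadjusted p was under 0.05 for 2 of the 10. The median log2 fold change of the 10 was −0.03. MIR222HG, the host of miR-221 and miR-222 and the highest of them by the mean over the 5 libraries (MIRLET7DHG was higher in HCC827/GR, at a mean of 4.82 FPKM), read 3.95, 4.34 and 5.21 FPKM in HCC827/GR and 7.23 and 7.26 FPKM in HCC827. Its groups did not overlap, and its difference of −0.59 missed the threshold narrowly (limma, adjusted p = 0.0534). It was under the threshold in 2 of 14 alternatives, with quantile scaling (adjusted p = 0.0470) and with the filter at a mean of 1 FPKM (0.0492), and 0.186 at most.

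Protein-coding and other genes that carry microRNAs in their introns were compared in the same way. Of 35, 33 were tested and 5 were called, 2 higher and 3 lower, or 15.2% beside 11.0% of all tested entries, with a median of −0.12. Without the filter limma called 2, and Ballgown's model called 0. EGFL7, an endothelial secreted factor gene and the host of miR-126, read 6.78, 7.34 and 7.39 FPKM in HCC827/GR against 1.97 and 1.95 in HCC827 (log2 fold change 1.46; limma, adjusted p = 0.00349). TLN2, the talin 2 gene and host of miR-190a, read 7.32, 6.58 and 6.71 FPKM against 1.86 and 2.23 (1.37; limma, adjusted p = 0.00558). Both rose in HCC827/GR and remained called whichever library was left out. MEST, an imprinted gene and the host of miR-335, fell by 1.02 (limma, adjusted p = 0.0302), from 12.7 and 12.6 FPKM to 4.56, 6.85 and 6.00. COPZ1, a coatomer subunit gene and the host of miR-148b, fell by 0.92 (limma, adjusted p = 0.0441). SLIT2, an axon guidance gene and the host of miR-218, fell by 0.70 (limma, adjusted p = 0.0445). SLIT2 passed the filter only through HCC827 (mean 1.25 FPKM, against 0.382 in HCC827/GR). Without 1 library, 2 to 3 of the 5 calls were left, and MEST was lost each time (adjusted p 0.0503 to 0.141).

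Genes that act on the hosts, or that respond to the same conditions, gave the following values. Of 12 hypoxia-responsive genes, listed because MIR210HG is induced by hypoxia, 9 were tested and 2 were called, both lower, or 22.2% beside 11.0% of all tested entries. The median log2 fold change was −0.42, and the groups did not overlap for 8 of the 9, beside 46.3% of all tested entries. Ballgown's model called 0 of the 9. The genes called by limma were EGLN3, the oxygen-sensing prolyl hydroxylase gene, at 0.125, 0.266 and 0.0916 FPKM in HCC827/GR against a mean of 2.88 ± 0.177 (SD, n = 2) in HCC827 (log2 fold change −1.74; limma, adjusted p = 0.00552), and PGK1, a glycolytic enzyme gene, at −1.56 (adjusted p = 0.0106). EGLN3 remained called whichever library was left out, whereas PGK1 was not called without HCC827 replicate 2 or 3, with a limma adjusted p of at most 0.0693. EGLN3 passed the filter only through HCC827 (mean 2.88 FPKM, against 0.161 in HCC827/GR). ADM, another gene of the list, had the opposite sign, at 1.13 (limma, adjusted p = 0.0527). With the filter at a mean of 1 FPKM, limma called 3 genes of the list. Of 10 transcription factor genes named as regulators of the hosts, 7 were tested, and their median was −0.02. Of the 7, 0 were called by limma or by Ballgown's model, where limma called 11.0% of all tested entries. An unadjusted limma p under 0.05 was given to 1 of the 7 and to 27.2% of all tested entries. That gene was MYC, at 7.76, 6.59 and 8.34 FPKM in HCC827/GR against 4.34 and 6.05 in HCC827. Its log2 fold change was 0.48 (limma, adjusted p = 0.160). Without HCC827 replicate 2, E2F3 was called higher (1.21; limma, adjusted p = 0.0492), against 0.58 (adjusted p = 0.403) with all 5 libraries. TP63, a regulator of MIR205HG in basal epithelium, was under the filter, at 0, 0 and 0.00414 FPKM in HCC827/GR and 0.234 and 0.191 FPKM in HCC827, and was called lower only when the filter was dropped (−0.28; limma, adjusted p = 0.0242). HIF1A, REL and, of the hypoxia list, SLC2A1 were not analysed here.

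Genes often named as targets of the hosted microRNAs were listed to set their mRNA levels beside those of the hosts. Of 28, 25 were tested and 6 were called, 5 higher and 1 lower, or 24.0% beside 11.0% of all tested entries, with a median log2 fold change of 0.07. Without the filter on low values limma called 1 of them, and Ballgown's model called 0. Each was searched for the letters that pair with the seed, on the sense strand of the longest annotated 3′ untranslated region (GENCODE release 29), and the share of 19115 genes holding the same letters is given beside it. A match is only a description of the sequence.

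For miR-205, the EMT transcription factor genes ZEB1 and ZEB2 rose by 0.82 (limma, adjusted p = 0.0372) and 0.95 (adjusted p = 0.0173). ZEB1 read 4.46, 4.88 and 4.59 FPKM in HCC827/GR and 1.77 and 2.69 FPKM in HCC827, and ZEB2 read 1.51, 1.22 and 1.45 FPKM against 0.219 and 0.259. ZEB2 passed the filter only through HCC827/GR (mean 1.39 FPKM, against 0.239 in HCC827). ATGAAGG occurred 1 time in ZEB1 and not in ZEB2, and in 11.6% of all genes. For miR-31, the Hippo kinase gene LATS2 rose by 0.98 (limma, adjusted p = 0.0434), from 3.65 and 2.14 FPKM in HCC827 to 6.76, 6.95 and 6.01 FPKM in HCC827/GR. TCTTGCC occurred 1 time in LATS2, not in ITGA5, RDX or WASF3, whose log2 fold changes of 0.51, 0.19 and 0.33 were not called, and in 12.6% of all genes.

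For miR-100 and miR-99a, the receptor gene IGF1R rose by 1.17 (limma, adjusted p = 0.0301), with 13.7, 14.3 and 9.68 FPKM in HCC827/GR against 4.61 and 5.35 in HCC827. TACGGGT, found in 0.984% of all genes, occurred 1 time each in IGF1R, MTOR and FGFR3 and not in PLK1, and MTOR (0.07), FGFR3 (0.05) and PLK1 (−0.05) were not called. For the miR-17 cluster, the matricellular protein gene THBS1 was 3.27 higher on the log2(FPKM + 1) scale (limma, adjusted p = 0.00521), at 391, 267 and 425 FPKM in HCC827/GR against 33.0 and 38.6 in HCC827. The cell cycle inhibitor gene CDKN1A fell by 0.87 (limma, adjusted p = 0.0308), from a mean of 1.93 ± 0.0949 FPKM (SD, n = 2) to 0.461, 0.556 and 0.834. GCACTTT, the match of miR-17, occurred 2 times in CDKN1A and not in THBS1 (21.3% of all genes), and TTTGCAC, that of miR-19a, 1 time in THBS1 (13.5%) and not in CDKN1A. The uncalled BCL2L11 (−0.25) and TGFBR2 (−0.58) held each of these matches 1 time. The 2 target genes thus moved in opposite directions, while MIR17HG itself had a difference of 0.02.

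Of the tested target genes of miR-22 (4), miR-210 (4) and miR-155 (3), 0 were called by limma or by Ballgown's model. An unadjusted limma p under 0.05 was given to 0 of them. Of all tested entries, limma called 11.0% and gave such a p to 27.2%. Ballgown's unadjusted p was under 0.05 for 1 target gene of miR-22. CDK6 differed by −0.09 (limma, adjusted p = 0.883), ISCU by 0.18 (adjusted p = 0.411) and CEBPB by −0.62 (adjusted p = 0.814). CEBPB was listed at 0 in HCC827/GR replicate 1 and read 13.5 and 12.9 FPKM in replicates 2 and 3, against 8.39 and 7.62 in HCC827. Without HCC827/GR replicate 1 its difference was 0.66 (limma, adjusted p = 0.0750). AGCATTA, the match of miR-155, occurred 1 time in each of its 4 listed genes and in 10.4% of all genes. Leaving out 1 library left 1 to 3 of the 6 calls among the target genes. THBS1 was called each time, whereas ZEB2 was not called without any 1 of the 5 libraries (adjusted p 0.0507 to 0.0733), and ZEB1, LATS2, IGF1R and CDKN1A were each called in 1 of the 5 cases. These are mRNA values of listed genes, and no relation between a host and a target gene was tested.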

How the data were processed

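Total RNA of HCC827/GR (replicates 1 to 3) and HCC827 (replicates 2 and 3) was sequenced. The authors trimmed reads with Cutadapt, mapped them with Bowtie2 and TopHat2, assembled and quantified transcripts with StringTie and Ballgown, and deposited FPKM per gene or assembled locus, which carries no read counts. The submitters' notes list build hg18, and versions are not given in the sources used here. The labels describe a small-RNA, single-end library, whereas the study's methods describe an rRNA-depleted, paired-end mRNA library. In the table, 1 FPKM column that matched no sample was left out.

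Positions came from GENCODE release 29 (GRCh38) through Ensembl transcript identifiers (135164 of 135299 found). Groups were compared with limma 3.58.1 in R 4.3.3 (two-sided, lmFit and eBayes, trend on) on log2(FPKM + 1), over 16189 entries whose mean FPKM reached 0.5, with Benjamini-Hochberg adjustment over all of them. Libraries were not rescaled. Exact permutation tests used scipy 1.17.1 in Python 3.11.15. The limma steps were tested on simulated data.

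The host genes and gene lists were chosen with earlier results of these data known. All host genes, their neighbours, the 2 genes most like each called host and, of each list, up to 4 called genes by size of change (otherwise the one with the highest mean) are named by rule. Of the genes so named, 1 is not reported here. DROSHA, TARBP2, ADM, SLIT2, MYC, E2F3, TP63, MIRLET7DHG and the uncalled target genes other than CDK6, ISCU and CEBPB were named after their values were seen. Other settings were a pseudocount of 0.1, the filter dropped or raised to a mean of 1 FPKM, median-ratio and quantile scaling, limma without the trend, Ballgown's model, the replicate number as a block, summed entries, the ratio of the mean FPKM, each library left out and, added after seeing the data, the entry with Ensembl transcripts.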

Additional observations from a re-analysis of the deposited data

How the results depend on the processing

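In the main comparison 1775 entries were called, against 13 with Ballgown's model, 0 by limma with the replicate block (3545 with an unadjusted p under 0.05, 4410 in the main comparison) and 489 to 962 with 1 library left out. Whether same-numbered libraries are pairs is not given. Their deviations correlated at 0.0328 and 0.0147. With 2 HCC827 libraries the crossed pairs give these values with the opposite sign, so the correlations cannot decide it. The block is kept as an alternative setting. Host genes called lower, 2 in the main comparison, numbered 0 under Ballgown, 0 with the block, 1 with the annotated entry (chosen after seeing the data) and 0 to 2 without 1 library. Host genes called higher, otherwise 0, numbered 1 with summed entries (MIR155HG, 1.13). Host genes past the fold and p thresholds, 1 in the main comparison, numbered 3 with the pseudocount of 0.1, 2 with the block, 2 with summed entries, 3 by the ratio of the mean FPKM, 0 with the annotated entry and 1 to 2 without 1 library. MIR31HG was −0.81 under Ballgown (adjusted p = 0.161), −0.83 with the block (0.143) and −0.87 to −0.80 without 1 library. MIR100HG was −1.14 under Ballgown (0.197), −1.15 with the block (0.133), −0.11 with the annotated entry (0.838) and −1.23 to −1.02 without 1 library. With the pseudocount of 0.1, MIR205HG was −0.61, MIR99AHG −0.11 and MIR210HG −0.90, and without 1 library MIR205HG was −0.11 to −0.042 and MIR210HG −0.37 to −0.13. The sign reversed for MIR17HG with the pseudocount (−0.033), under Ballgown (−0.017) and without 1 library (−0.18 to 0.14), and for MIR22HG without 1 library (−0.041 to 0.38). Signs also reversed for CDK6 with the block (0.0064) and without 1 library (−0.33 to 0.11), CEBPB with the block (0.66) and without 1 library (−1.27 to 0.66), UBASH3B under median-ratio (−0.012) and quantile scaling (−0.024), Ballgown (−0.060), the block (−0.00811) and without 1 library (−0.085 to 0.10), and PHRF1 without 1 library (−0.21 to 0.079). The cause was not tested. Quantile scaling and the stricter filter gave no value for the 3 untested hosts. With 5 libraries and no read counts, the counting error of low hosts is unknown.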
